A study of Mus musculus with 32 samples.

Results

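The 38 genes described here are nuclear receptors, the family of ligand-regulated transcription factors to which the brown fat regulator Pparg belongs, with Pparg itself left out. They were taken by gene symbol, and 55 probes of the array map to them, out of 39429 probes and 20659 named genes in all. RNA from C57Bl/6 mouse cells was measured on 32 one-colour Agilent expression arrays, 4 in each of 8 groups, and the question the study set was how Pparg acts on brown adipocytes through glycerol kinase. Of the 4 culture groups, kept at room temperature, a Pparg knockdown and a Gyk knockdown were each set against a control of their own (Gyk is an older symbol of Gk, glycerol kinase). The other 4 groups came from mice: a Pparg control and a Pparg knockout at room temperature, and the same pair after cold exposure. All 32 samples carry the label preadipocyte. The labels give no age and no duration of cold, and they refer to another publication for growth and treatment. How Pparg and Gk were knocked down, in which cells the knockout acted and whether samples of a group came from separate animals or cultures is not given in the sources used here, so a p-value here reflects only how far the arrays of a group lie from each other, and that variation may be technical.

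Nuclear receptors carry a DNA-binding domain that reads short repeats of a hexamer and a domain that binds a lipid-soluble ligand. Many of them, such as the liver X, farnesoid X, retinoic acid, thyroid hormone and vitamin D receptors, bind DNA as a pair with a retinoid X receptor, the partner Pparg also needs; steroid receptors pair with themselves, and orphan receptors have no known hormone. In brown fat the estrogen-related receptors, which are orphans, are known for driving mitochondrial genes together with the coactivators Ppargc1a and Ppargc1b, and thyroid hormone receptors are known for their part in heat production.

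The levels given are log2 of the processed spot intensity minus the 75th percentile of the same array, so 0 stands for a probe at that percentile and 1 unit is a doubling. They order groups for a probe, and say nothing about which of several genes is more abundant. The Agilent software marks a spot as well above background, and by that mark 19 of the 38 receptors (50%) were detected on all 32 arrays with the probe of highest mean signal, compared with 45.8% of all named genes. These were the liver X receptors Nr1h2 and Nr1h3, the retinoic acid receptors Rara, Rarb and Rarg, the thyroid hormone receptor Thra, Rxrb, Ppard, the glucocorticoid receptor Nr3c1, the estrogen receptor Esr2, the estrogen-related receptor Esrra, Rorb, and the orphans Nr2c1, Nr2c2, Nr2f1, Nr2f2, Nr2f6, Nr4a2 and Nr5a1. Another 12 receptors were detected on 4 to 31 arrays.

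Thrb, the thyroid hormone receptor known for inducing Ucp1, and Nr5a2, an orphan of liver and gut, were detected on all 16 mouse arrays and on 0 of 16 culture arrays with those probes. The second Thrb probe was detected on 1 culture array. Nr1i3, the xenobiotic receptor CAR of liver, was detected on 16 mouse arrays and 3 culture arrays. Nr3c2, the mineralocorticoid receptor, reached 14 of 16 mouse arrays and 1 of 16 culture arrays. Nr1h4, the bile acid receptor FXR, was detected on all 16 mouse arrays and, in culture, on all 4 Pparg knockdown arrays but on none of the other 12. Nr0b2, a receptor without a DNA-binding domain, ran the other way, with 7 culture arrays and 0 mouse arrays. Nr6a1, an orphan of germ cells, was detected on 6 mouse arrays. Esrrb and Rora were each detected on 31 arrays, Esrrg and Vdr on 30, and Esr1 on 29.

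With the chosen probe, 4 receptors were detected on no array: Nr0b1, an adrenal receptor, Nr1i2, the xenobiotic receptor PXR, Nr2e1, a receptor of neural stem cells, and Pgr, the progesterone receptor. That is 10.5% of the family, against 17% of all named genes. The second Pgr probe passed on 1 culture array. Nr2e3, a photoreceptor gene, Hnf4a, a liver receptor, and its relative Hnf4g were each detected on 1 array. For Nr2e3 it was a Pparg culture control and for the others a room temperature control. For these 7 genes nothing further can be said from the arrays, and 31 receptors were left to test.

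**Figure D1:**
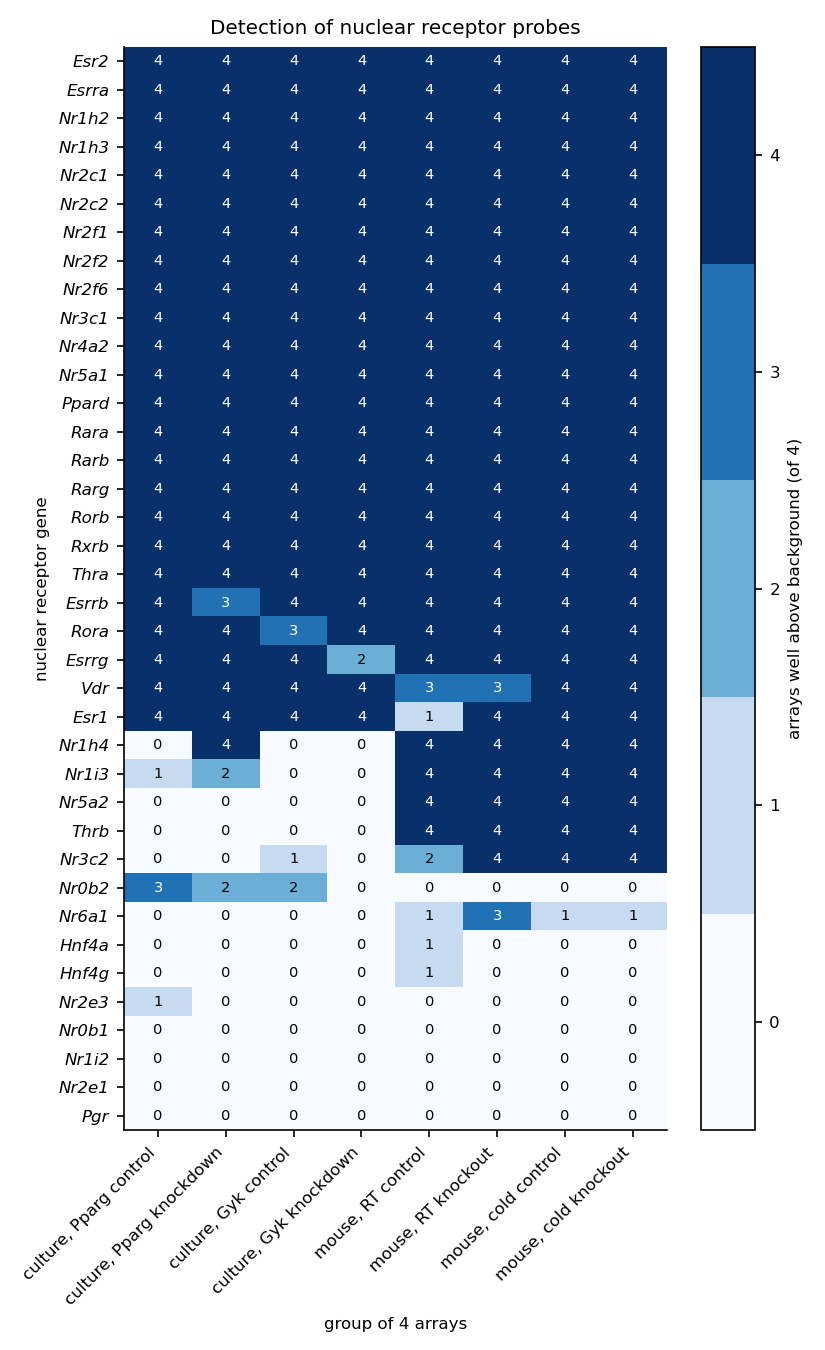
Number of arrays, of 4 in each group, on which the chosen probe of each receptor was well above background; rows are the 38 genes and columns the 8 groups. The 19 genes at the top were detected on all 32 arrays, whereas Nr5a2 and Thrb have 4 in every mouse group and 0 in every culture group.

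The 75th percentile of the spot intensities ran from 141.3 to 806.3 over the 32 arrays, with 46.7% to 60.9% of spots well above background and 0 saturated, and arrays with a lower percentile detect fewer dim probes. The lowest belonged to Gyk knockdown array 3. Each experiment was scanned on 1 day on a pair of slides that held both of its groups, so knockdown or knockout can be set against its control within a slide, whereas cold and room temperature cannot be told apart from slide and day. Pparg was lower in the knockdown (log2 difference -1.91; 3.76-fold) and Gk in the Gyk knockdown (-2.4; 5.26-fold), both with an exact 2-sided permutation p of 0.0286, the smallest that 4 against 4 arrays allow. The only named Pparg probe was higher, not lower, on the arrays labelled knockout, by 2.08 at room temperature and by 2.13 in the cold (exact permutation p = 0.0286 for each). Which part of the gene was deleted, and whether this probe lies in it, is not given in the sources used here, so the probe does not check these labels, and every knockout direction below rests on them. Each of the 6 adipocyte markers and of the 7 preadipocyte and fibroblast markers was detected on at least 1 array of every group. None of the 4 epithelial markers was detected on all arrays of any group.

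Differences were tested with limma over all genes whose probe passed on at least 4 arrays of a comparison, and a difference is called where its p, adjusted over all those genes by the Benjamini-Hochberg method, was under 0.05. In the Pparg knockdown, 16 of 26 tested receptors were called, 7 higher and 9 lower, where 34.1% of all genes tested were called (18.1% higher and 16% lower). Their median log2 difference was -0.01 and their median absolute difference 0.53, against 0.03 and 0.25 over all genes. Arrays with the same replicate number deviated together in this experiment, but so did some with other numbers, and the numbers coincide with slides. With either number or slide as a block 19 receptors were called, the same 16 and Esr2, Ppard and Rxrb. Over all genes the block by number gave 7407 calls in place of 4375. With arrays centred on their medians, 12 were called, 3 higher and 9 lower, and the 4 lost were all higher calls: Nr2f2, Rara, Rora and Rorb. The Gyk knockdown gave 2 calls of 24, 2 higher and 0 lower, where 8.76% of all genes were called (4.65% higher and 4.11% lower). On the arrays labelled knockout at room temperature 12 of 30 were called, 4 higher and 8 lower, beside 44.6% of all genes (19.6% higher and 25% lower). The cold pair gave 7 of 29, 3 higher and 4 lower, beside 32% of all genes (13.7% higher and 18.3% lower), and 4 higher and 3 lower after quantile normalization. Esr1 is counted as higher in both knockout comparisons, although its probes disagreed, as given below. The share of receptors called thus lay above the background in the culture knockdown of Pparg and close to or below it elsewhere. In bulk RNA, fewer cells of a type and less RNA per cell cannot be told apart.

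**Figure D2:**
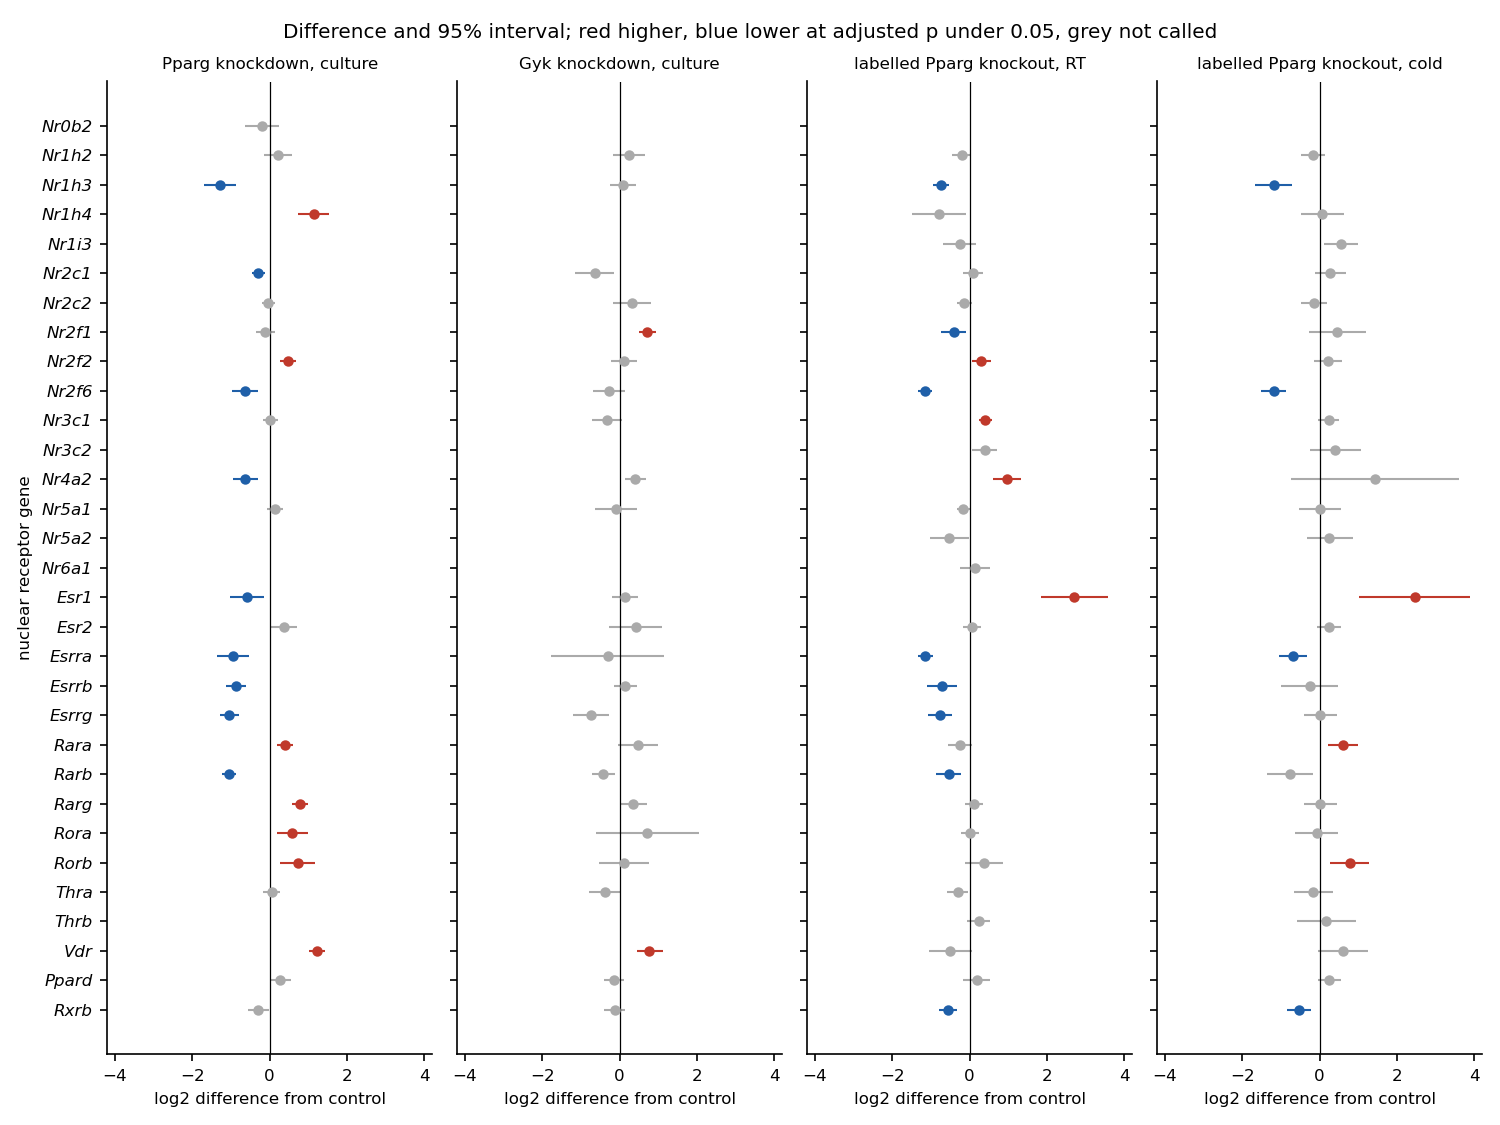
Log2 difference from control with its 95% interval for each tested receptor (rows) in the 4 knockdown or knockout comparisons (panels), from limma; red is higher and blue lower at an adjusted p under 0.05, grey is not called. Nr1h3, Nr2f6 and Esrra are blue in all 3 Pparg panels and in none for Gyk.

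Nr1h3, Nr2f6 and Esrra were the only receptors lower in all 3 Pparg comparisons, and 0 were higher in all 3. Of the 25 receptors tested in all 3 these are 12%, where 6.26% of all genes tested in all 3 were lower and 2.8% higher throughout. They are the liver X receptor alpha, which senses oxysterols and is known to induce Srebf1 and lipid synthesis; an orphan also called EAR2; and the estrogen-related receptor alpha, a driver of mitochondrial genes. The 2 knockout comparisons use different arrays, and so does the culture comparison. Because these 3 genes moved together, the 250 bases before their start sites are given from RefSeq (GRCm38.p6), each read on the minus strand, 5′ to 3′: Nr1h3 at chr2:91195117-91195366 (the first of 2 starts listed), Esrra at chr19:6921809-6922058 and Nr2f6 at chr8:71381953-71382202. Capitals mark a match on either strand to the receptor half-site in any of 4 spellings, of which the first is AGGTCA, the second is written AGTTCA, the third is read as GGGTCA, and the last has the letters GGTTCA.
Nr1h3: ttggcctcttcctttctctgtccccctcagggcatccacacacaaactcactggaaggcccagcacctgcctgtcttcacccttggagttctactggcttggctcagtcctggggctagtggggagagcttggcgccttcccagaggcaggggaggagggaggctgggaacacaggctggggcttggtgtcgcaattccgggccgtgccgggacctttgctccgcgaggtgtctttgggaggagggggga
Esrra: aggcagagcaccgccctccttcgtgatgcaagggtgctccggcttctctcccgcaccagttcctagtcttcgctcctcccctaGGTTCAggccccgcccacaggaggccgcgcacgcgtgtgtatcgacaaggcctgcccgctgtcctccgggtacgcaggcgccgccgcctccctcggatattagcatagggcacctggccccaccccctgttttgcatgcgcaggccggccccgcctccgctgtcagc
Nr2f6: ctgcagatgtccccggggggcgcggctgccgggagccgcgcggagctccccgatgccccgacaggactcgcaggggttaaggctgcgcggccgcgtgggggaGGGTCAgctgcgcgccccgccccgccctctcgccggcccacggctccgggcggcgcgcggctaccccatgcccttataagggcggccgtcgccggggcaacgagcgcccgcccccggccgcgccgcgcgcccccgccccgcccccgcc
Esrra and Nr2f6 each hold 1 such hexamer and Nr1h3 holds 0 in this window. The table had promoters for 34 of the 38 receptors, and at least 1 of these spellings was in 35.3% of their 51 listed promoters and in 38.6% of all 32851 promoters of this length. The repeat that Pparg pairs are known to bind, the first of these spellings given once more after 1 base of any kind (DR1), searched on both strands, was in 0 of the 51 and in 0.0335% of all promoters.

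For Nr1h3, the Pparg culture controls read 3.51, 3.68, 4.02 and 4.09 on arrays 1 to 4 and the knockdown arrays 2.27, 2.33, 2.83 and 2.76. The 2 groups did not overlap, and arrays 3 and 4, which shared a slide, were the higher pair in both. The difference was -1.28 ± 0.18 (SE; 2.42-fold; adjusted p = 0.00073). At room temperature the mouse controls read 4.28, 4.17, 4.31 and 4.43 and the arrays labelled knockout 3.38, 3.64, 3.59 and 3.62. Again no array of one group reached the other, with a difference of -0.74 ± 0.09 (adjusted p = 0.000433). In the cold the controls read 4.95, 4.68, 4.14 and 4.45 and the arrays labelled knockout 3.47, 3.6, 2.95 and 3.46. These groups were as separate (-1.19 ± 0.21; adjusted p = 0.00382). In the Gyk knockdown the difference was 0.09, with a 95% interval from -0.26 to 0.43. The second Nr1h3 probe gave -1.23, -0.7 and -1.28 in the 3 Pparg comparisons and 0 in the Gyk one.

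For Nr2f6 the room temperature controls read 4.59, 4.71, 4.53 and 4.51 and the arrays labelled knockout 3.41, 3.5, 3.43 and 3.37, more than 1 unit apart (-1.16 ± 0.08; 2.23-fold; adjusted p = 2.28e-05). Cold controls read 5.6, 5.31, 5.13 and 5.58, and cold arrays labelled knockout 4.3, 4.32, 4.06 and 4.16. The cold groups lay higher than those at room temperature but kept the same distance, -1.19 ± 0.14 (adjusted p = 0.000816). In culture the controls read 5.04, 5.15, 5.5 and 5.55 and the knockdown 4.53, 4.48, 4.8 and 4.87. That smaller step, -0.65 ± 0.15 (adjusted p = 0.00929), left the groups apart too. The Gyk knockdown gave -0.28 (95% interval -0.7 to 0.14).

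Esrra stood at 5.89, 5.77, 5.86 and 5.93 in the room temperature controls and at 4.7, 4.87, 4.61 and 4.68 on the arrays labelled knockout (-1.15 ± 0.08; 2.22-fold; adjusted p = 3.28e-05). In the cold, controls of 5.17, 4.74, 4.9 and 5.22 faced 4.41, 4.53, 4.21 and 4.08. Both pairs of groups were separate, the second by less (-0.7 ± 0.16; adjusted p = 0.0109). Culture controls read 4.41, 4.49, 3.95 and 4.01 and the Pparg knockdown 3.46, 3.55, 2.93 and 3.14 (-0.94 ± 0.18; adjusted p = 0.00362). In the Gyk experiment control array 3 read 1.97 where the other controls read 4.72 to 4.96, and the knockdown read 4.03, 3.85, 4.08 and 3.25. With that array in the fit the difference was -0.31, its 95% interval ran from -1.78 to 1.16 and the groups overlapped. Without it the difference was -1.03 (95% interval -1.54 to -0.51), the groups did not overlap, and the adjusted p of 0.0613 missed the threshold, so whether Esrra moved in the Gyk knockdown rests on that array.

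**Figure D3:**
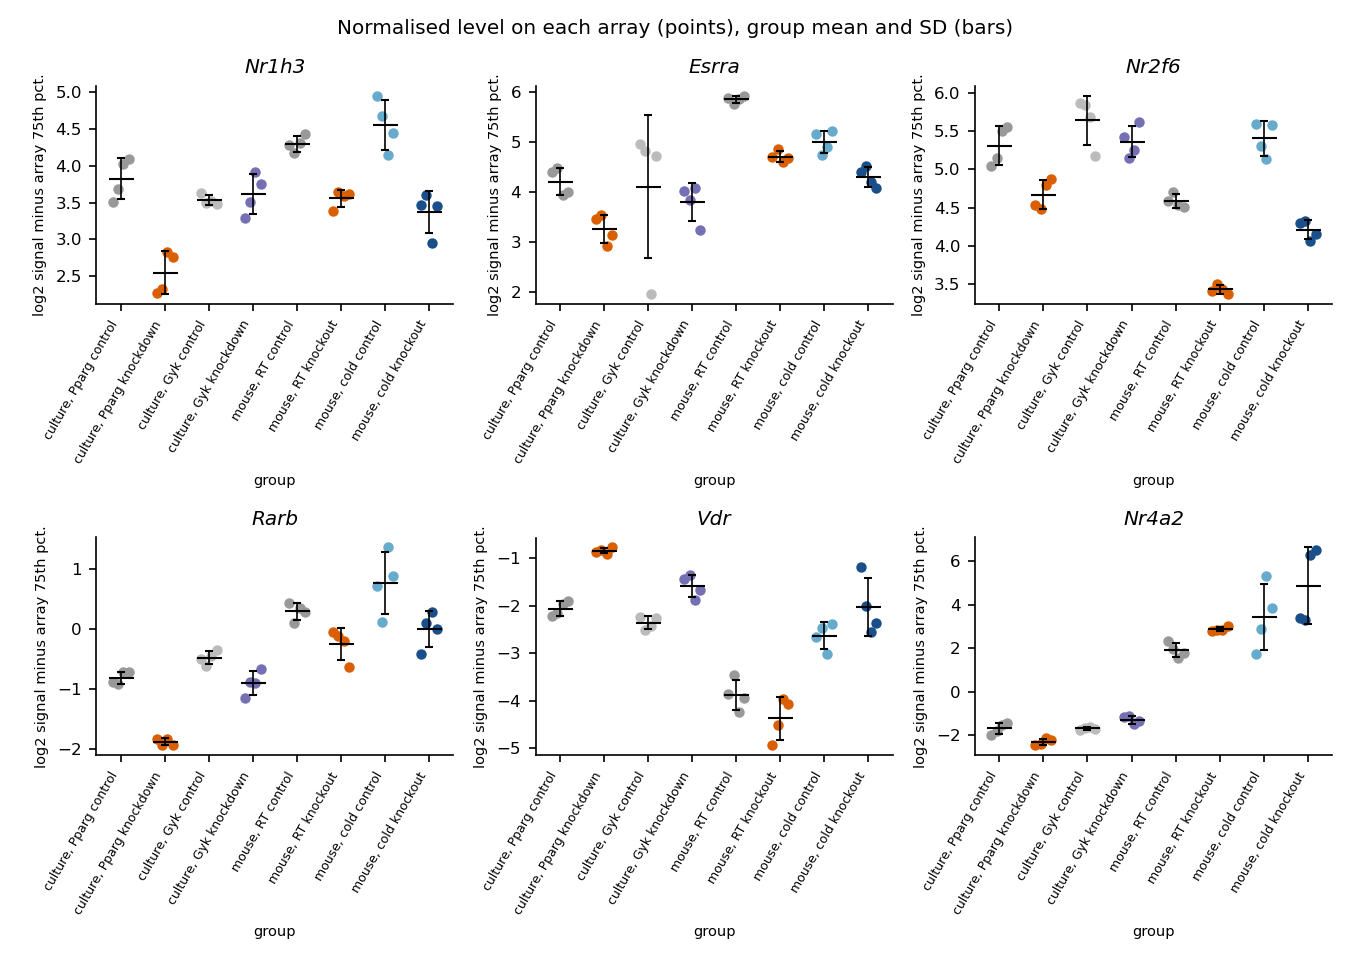
Normalised level on each of the 4 arrays of each group (points, log2 units relative to the 75th percentile of the array) with group mean and SD (bars) for 6 receptors, each panel on a scale of its own. Nr1h3, Esrra and Nr2f6 are lower in each Pparg knockdown or knockout group than in its control, and Nr4a2 splits into 2 levels in the cold knockout group.

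The other 2 estrogen-related receptors, which share the targets of Esrra, were lower in culture and at room temperature. Esrrg went from -2.89, -2.75, -2.72 and -2.79 in the culture controls to -3.78, -3.79, -3.66 and -4.11 in the Pparg knockdown. The groups were separate (-1.05 ± 0.11; adjusted p = 0.000114). In the Gyk experiment Esrrg read -2.76, -3.09, -2.81 and -2.78 in controls and -3.27, -3.26, -3.74 and -4.11 after the knockdown. These groups were separate too, with 2 of 4 knockdown arrays well above background. That difference of -0.74 was not called, but it was without Gyk knockdown array 1. The 2 knockdown effects on Esrrg were not called different. At room temperature Esrrg went from -0.63, -0.65, -0.76 and -0.53 to -1.6, -1.11, -1.23 and -1.67, again without overlap (-0.76 ± 0.14; adjusted p = 0.00264). In the cold the groups overlapped, with controls at -1.19, -1.36, -1.61 and -1.68 and arrays labelled knockout at -1.52, -1.68, -0.94 and -1.6 (0.02, 95% interval -0.41 to 0.46). Esrrb, the third of the group and known from stem cells, read -4.01, -3.99, -3.87 and -4.19 in the culture controls and -4.86, -4.97, -4.62 and -5.08 in the knockdown, where 3 of 4 arrays were well above background. It fell by 0.87 (SE 0.12; adjusted p = 0.000591), and without overlap. In the mice at room temperature it read 0.63, 0.38, 0.49 and 0.9 against 0.09, 0.14, -0.22 and -0.48 (-0.72 ± 0.17; adjusted p = 0.00853), and in the cold its difference was -0.26 (adjusted p = 0.565).

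Of 8 listed genes that the estrogen-related receptors are known to induce, 6 were called lower in the Pparg knockdown, 7 at room temperature and 5 in the cold, where 16%, 25% and 18.3% of all genes were lower, and 0 were higher in any of the 3. In the cold Esrra was the 1 receptor of the 3 that was called lower. The list medians were -0.63, -0.52 and -0.74, beside 0.03, -0.05 and -0.05 over all genes. Idh3a, a subunit of a citric acid cycle enzyme, fell by 1.28 in the knockdown, and Acadm, an enzyme of fatty acid oxidation, by 1.22. At room temperature the deacetylase Sirt3 (-1.1) and cytochrome c, Cycs (-0.89), moved most, and in the cold Cycs (-1.22) and Acadm (-1.19). In the Gyk knockdown 2 of 8 were lower, Idh3a (-1.14) and Sirt3 (-0.49), beside 4.11% of all genes.

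Among the retinoic acid receptors, the 3 isotypes did not move as one. Rarb, itself a classical target of retinoic acid, read -0.88, -0.92, -0.72 and -0.72 in the culture controls and -1.82, -1.92, -1.83 and -1.93 in the Pparg knockdown. All 4 knockdown arrays were about 1 unit below all controls (-1.06 ± 0.08; adjusted p = 2.08e-05). At room temperature Rarb read 0.44, 0.11, 0.35 and 0.28 in controls and -0.04, -0.11, -0.19 and -0.63 on the arrays labelled knockout (-0.54 ± 0.14; adjusted p = 0.0147), and in the cold the difference of -0.77 missed the threshold (adjusted p = 0.0512) but passed with slide (0.0182) or replicate number (0.031) as a block. Rarg, the isotype of skin and cartilage, rose in the knockdown from 0.44, 0.6, 0.61 and 0.77 to 1.43, 1.34, 1.3 and 1.45, without overlap (0.78 ± 0.09; adjusted p = 0.000226). Rara, the most widespread isotype, rose from 2.48, 2.5, 2.69 and 2.73 to 3.03, 2.93, 2.9 and 3.14 (0.4 ± 0.09; adjusted p = 0.01; 0.155 with median centring). In the cold Rara was higher on the arrays labelled knockout as well, at 1.39, 1.69, 1.68 and 1.66 against 1.05, 1.35, 0.62 and 1.02 (0.6 ± 0.17; adjusted p = 0.0261), a call lost without control 1, 3 or 4 or without knockout-labelled array 2, 3 or 4. Of the 5 listed retinoic acid targets 3 were tested, and in culture Tgm2, a transglutaminase, fell by 1.44 and Dhrs3, a retinal reductase, by 0.97. At room temperature Dhrs3 was higher by 0.93 and Cyp26b1, which degrades retinoic acid, by 1.09. Aldh1a1, which makes retinoic acid from retinal, was higher in the knockdown (1.31) and at room temperature (1.47), and the retinol carrier Rbp4 was lower in the knockdown (-1.32) and in the cold (-1.38).

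Vdr, the vitamin D receptor, was the receptor with the largest rise in the Pparg knockdown. Controls read -2.21, -2.16, -1.97 and -1.89 and the knockdown -0.87, -0.82, -0.9 and -0.77, more than 1 unit apart (1.22 ± 0.09; 2.33-fold; adjusted p = 2.2e-05). In the Gyk knockdown Vdr rose as well, from -2.23, -2.5, -2.43 and -2.26 to -1.43, -1.36, -1.87 and -1.67, by 0.77 ± 0.14 (adjusted p = 0.0191). The Gyk call was lost without control 2, 3 or 4 and with the replicate number as a block, and the 2 knockdown effects on Vdr were not called different (0.45 ± 0.17; adjusted p = 0.115), although they were with slide as a block (adjusted p = 0.0477). In the mice the difference was -0.5 at room temperature and 0.6 in the cold, neither called, and the first was called with slide as a block (adjusted p = 0.0283). Nr1h4 was not detected on any of the 4 Pparg culture controls and was on all 4 knockdown arrays, at -4.84, -4.51, -4.27 and -4.45. Against the dimmest signals that count as detected, it was at least 1.75-fold higher. Its measured means were -5.65 and -4.52, near the floor of the array. It entered the test through the knockdown arrays only, so its call is no support for a change; with no filter on dim probes its adjusted p was 0.00376. Without any 1 knockdown array it was no longer tested, and under normexp, another background correction, its difference was -0.16.

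Rxrb, one of the shared partners, was lower on the arrays labelled knockout at both temperatures. It read 4.07, 4.06, 4.35 and 4.37 in room temperature controls against 3.68, 3.77, 3.58 and 3.57 (-0.57 ± 0.1; adjusted p = 0.00274). In the cold it read 5.17, 5.07, 5.09 and 5.03 against 4.79, 4.74, 4.34 and 4.39 (-0.53 ± 0.14; adjusted p = 0.0189). Neither pair of groups overlapped, and the cold call was lost without knockout-labelled array 4. In culture the difference was -0.29 (adjusted p = 0.098). Ppard, a close relative of Pparg that senses fatty acids, was called in none of the 4 knockdown or knockout comparisons, with differences of 0.28, -0.14, 0.19 and 0.25. Of listed genes that Ppard and Ppara are also known to induce, 4 of 7 tested were lower in the Pparg knockdown, led by Cpt1b (-1.53) and Pdk4 (-1.44), beside 16% of all genes. At room temperature 6 of 8 were higher and 1 lower, Ucp3 (2.1) among the higher, beside 19.6% and 25% of all genes. In the cold 2 were higher and 2 lower, Cpt1a (1.48) among the higher, beside 13.7% and 18.3% of all genes. Nr1h2, the liver X receptor beta, and Thra were called in none of these comparisons.

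Over all genes, 18.1% were called higher and 16% lower in the Pparg knockdown, and 4.65% and 4.11% in the Gyk knockdown. On the arrays labelled knockout the shares were 19.6% and 25% at room temperature and 13.7% and 18.3% in the cold. Of 7 liver X receptor targets, 1 was higher and 3 lower in the Pparg knockdown (Srebf1 by -1.13 and Scd1 by -0.87 the largest). At room temperature 1 was higher and 2 lower, with the cholesterol exporter Abca1 at 1.02 and the lipid transfer protein Pltp at -0.81. In the cold 4 were lower, led by Scd1 (-1.97) and Abcg1 (-0.99), and 0 higher. The median over the 7 targets was -0.4 in the Pparg knockdown, -0.32 at room temperature and -0.7 in the cold. In the Gyk knockdown it was -0.53, with 1 of the 7 called higher and 0 lower. Over all genes the medians were 0.03, -0.05, -0.05 and 0.02, in that order. Among 18 coregulators, the proteins that receptors recruit to chromatin, 1 was higher and 3 lower in culture, led by Prdm16 (-1.31) and Ppargc1b (-1.14). At room temperature 5 were higher and 3 lower, led by Ppargc1a (-2.11). The shares of coregulators called in culture and at room temperature were close to or below the 34.1% and 44.6% of all genes called. In the Gyk knockdown 0 of 18 coregulators were called, with limma, and single genes of the other lists were: Abcg1 (0.62), Tgm2 (0.84), Pdk4 (-0.85), and of ligand supply Rbp4 (-1.08) and Rdh10 (-0.96) among 4 lower of 8 tested.

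The COUP and testicular orphan receptors moved by smaller steps. Nr2f2, a repressor of adipogenesis, rose in the Pparg knockdown from -0.13, -0.32, -0.18 and -0.05 to 0.22, 0.26, 0.43 and 0.3 (0.47 ± 0.09; adjusted p = 0.00305; 0.063 with median centring). At room temperature it went from -1.2, -0.96, -0.8 and -0.82 to -0.71, -0.63, -0.61 and -0.63 (0.3 ± 0.1; adjusted p = 0.0393). Both pairs of groups were separate, the second narrowly, and its call was lost without either of room temperature controls 1 and 2 or any of the 4 arrays labelled knockout. Nr2f1, its close relative, was higher in the Gyk knockdown, at 0.85, 0.95, 1.01 and 1.07 against 0.31, 0.21, 0.24 and 0.27, without overlap (0.71 ± 0.1; adjusted p = 0.0062). In the Pparg knockdown it did not pass (-0.11), and at room temperature it was lower (-0.41 ± 0.14; adjusted p = 0.043), a call lost without any 1 of the 4 controls or either of the first 2 arrays labelled knockout. Nr2c1 was lower in the Pparg knockdown, with 0.52, 0.41, 0.59 and 0.61 in controls and 0.33, 0.22, 0.23 and 0.2 after it (-0.29 ± 0.08; adjusted p = 0.0176), though its second probe gave -0.12 and the call was lost without knockdown array 4.

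Nr4a2, an immediate-early orphan that cyclic AMP is known to induce, went in opposite directions in culture and in mice. The Pparg knockdown arrays read -2.45, -2.41, -2.12 and -2.23 where controls read -1.97, -1.79, -1.52 and -1.43 (-0.63 ± 0.14; adjusted p = 0.00798). At room temperature the arrays labelled knockout read 2.8, 2.85, 2.85 and 3.03 where controls read 2.35, 1.97, 1.56 and 1.77, so it was higher (0.97 ± 0.16; adjusted p = 0.00184). Neither pair overlapped. In the cold its controls read 1.75, 2.86, 5.3 and 3.82 and the arrays labelled knockout 3.38, 3.31, 6.29 and 6.48. In both cold groups arrays 3 and 4, which lay on 1 slide, were the high pair, and the difference of 1.43 ± 0.95 was not called (adjusted p = 0.284), although it was with slide as a block. Rorb, a receptor of the circadian and retinal ROR group, rose in the Pparg knockdown from -2.05, -2.06, -1.57 and -1.49 to -1.3, -1.4, -0.76 and -0.8 (0.73 ± 0.2; adjusted p = 0.0224). In the cold it read -2.77, -2.41, -3.09 and -3.51 in controls and -2.25, -2.15, -2.03 and -2.25 on the arrays labelled knockout (0.78 ± 0.22; adjusted p = 0.0266). Rora rose in the knockdown by 0.59 ± 0.18 with overlapping groups (adjusted p = 0.0317). Both knockdown calls were lost with quantile normalization or median centring and without control array 1 or 2 or knockdown array 3 or 4, and the cold call of Rorb without control 3 or knockout-labelled array 2, 3 or 4. Nr3c1, the glucocorticoid receptor, was higher at room temperature by 0.41 ± 0.08 (adjusted p = 0.0034), and its second probe by 0.5. In the cold knockout comparison its probes gave 0.23 and 0.46. Elsewhere they differed more, with 0.02 and 0.55 in the Pparg knockdown and -0.32 and 1.14 in the Gyk knockdown. For cold against room temperature they gave 0.1 and -0.69 in controls and -0.07 and -0.73 in mice labelled knockout. Of 10 glucocorticoid receptor targets 4 were higher and 3 lower in culture, beside 18.1% and 16% of all genes, the largest being Tsc22d3 (-0.52) and Zbtb16 (-0.51). At room temperature 3 were higher and 1 lower, led by Mt2 (2) and Zbtb16 (-1.64), beside 19.6% and 25% of all genes. In the cold Tsc22d3 alone was called (1.03), where 32% of all genes were called. Of 5 thyroid hormone targets 4 were tested. In culture 2 were higher and 2 lower, at room temperature 1 and 0, and in the cold 1 and 1. The largest were Hr, higher in all 3 Pparg comparisons (1.65, 1.97 and 1.11), and Me1, lower in culture (-0.83). The list medians were -0.15, -0.15 and -0.29.

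Esr1, the estrogen receptor alpha, cannot be given a direction in the mice, because its probes disagreed. The chosen probe read -4.47, -3.5, -4.34 and -4.3 in room temperature controls, where 1 of 4 arrays was well above background, and -0.83, -1.31, -2.55 and -1.07 on the arrays labelled knockout (2.71 ± 0.38; adjusted p = 0.000732). In the cold it read -2.89, -1.94, -2.41 and -2.5 against -1.56, -0.87, 1.01 and 1.51 (2.46 ± 0.63; adjusted p = 0.0182), with the 2 high arrays on 1 slide. The second probe, well above background on all 16 of these arrays, gave -1.13 and -1.2 in the same comparisons. The third was well above background on 0 of 8 room temperature arrays and 4 of 8 cold arrays and gives no value there. At room temperature the chosen probe passed the filter through the arrays labelled knockout, so its call there is no support for a rise. In the Pparg knockdown the first and the second probe, each well above background on all 8 arrays, fell by 0.58 and 0.87 (chosen probe adjusted p = 0.0457, lost without several single arrays, with overlapping groups of -1.84, -1.6, -1.55 and -1.49 against -2.45, -2.53, -1.64 and -2.19).

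**Figure D4:**
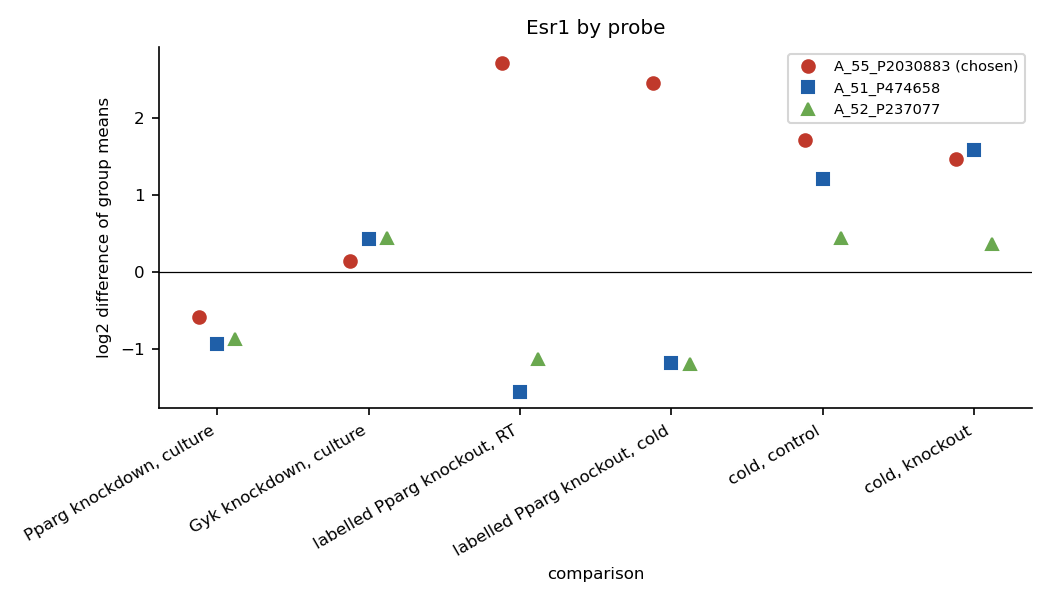
Log2 difference of group means (vertical axis) for each of the 3 Esr1 probes in 6 comparisons (horizontal axis). The chosen probe lies above 0 in both knockout comparisons where the other 2 lie below 0; the third probe was well above background on at most 4 of the 8 arrays of any comparison.

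The markers of other cells moved with these comparisons. Sums are in multiples of the 75th percentile of the array, lowest to highest array. The 6 adipocyte markers summed to 715 to 861 in the Pparg culture controls and to 269 to 353 in the knockdown. At room temperature they summed to 1310 to 1700 in controls and 752 to 878 on the arrays labelled knockout, and in the cold to 1300 to 1410 and 555 to 728. Skeletal muscle markers, 6 in all and led by myoglobin (Mb, 6.63 higher at room temperature), summed to at most 17.1 in room temperature controls, with Ckm and Myh4 detected on 0 arrays, and to 79.6 to 144 on the arrays labelled knockout. Mb was the 1 called of 3 muscle markers tested there, beside 44.6% of all genes, and Myl1 had a difference of -0.79. The cold controls ran from 17.7 to 218 and their knockout counterparts from 116 to 194. In that comparison Mb was higher (5.79) and Myl1 lower (-1.62), and the median of the 6 muscle markers was -3.37. Endothelial markers summed to 16.9 to 23.3 in room temperature controls and to 12.7 to 15.2 on the arrays labelled knockout. Of these 6 markers 4 were called lower, beside 25% of all genes. Of the 7 preadipocyte and fibroblast markers 4 were called higher in the Pparg knockdown (sums of 13.3 to 16.3 and then 20.1 to 23.9), and 5 in the cold (25.5 to 29.6 and 35.7 to 51.2). Over all genes 18.1% were higher in the Pparg knockdown and 13.7% in the cold. In the cold the 5 macrophage markers measured summed to 12.4 to 15.5 in controls and to 19.4 to 34.7 on the arrays labelled knockout, and all 5 were called higher. The 5 nerve and Schwann cell markers summed to 16 to 24.2 and to 67.6 to 75, with 2 called higher. The macrophage and nerve counts stand beside the 13.7% of all genes called higher in the cold. The 6 brown adipocyte markers summed to 461 to 605 in the Pparg culture controls and 144 to 189 in the knockdown. There 5 of 5 tested were called lower. At room temperature they summed to 2800 to 3870 and 1220 to 1490, and in the cold to 2390 to 2550 and 733 to 1460. At each temperature 5 of 6 were called lower. In the Gyk experiment they summed to 428 to 573 in controls and 236 to 351 after the knockdown. Again 5 of 6 were called lower, with Elovl3 on 0 knockdown arrays. Over all genes 16%, 25%, 18.3% and 4.11% were lower in these comparisons, in that order. The part of these shifts in the receptor differences was not tested. Without the 2 cold controls highest in muscle markers, an alternative chosen after seeing the data, Nr1h3, Nr2f6 and Esrra were still called lower in the cold, and Esr1 and Rxrb were not called. These 2 were the only cold controls on their slide, so muscle and slide cannot be told apart in this alternative.

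Whether an effect differs between settings was tested directly. Between the 2 culture knockdowns, 5 of 26 receptors differed, each lower with Pparg than with Gyk, where 12.4% of all genes tested differed (6.29% higher and 6.14% lower). They were Nr1h3 (-1.36 ± 0.24; adjusted p = 0.00152), Nr4a2 (-1.03 ± 0.18; adjusted p = 0.00149), Esrrb (-1.01 ± 0.18; adjusted p = 0.00122), Nr2f1 (-0.83 ± 0.15; adjusted p = 0.00136) and Rarb (-0.64 ± 0.15; adjusted p = 0.0106). The Gyk arrays behind them showed little movement of Nr1h3, with controls of 3.63, 3.49, 3.52 and 3.48 and a knockdown of 3.29, 3.51, 3.92 and 3.75. Nr4a2 was slightly higher there, at -1.14, -1.12, -1.49 and -1.36 against -1.75, -1.66, -1.63 and -1.69, without overlap but not called (adjusted p = 0.0688). Esrrb read -3.81, -3.85, -4.13 and -4.21 in the Gyk controls and -3.94, -3.88, -3.88 and -3.73 after it. For Rarb the Gyk arrays read -0.5, -0.61, -0.44 and -0.34 in controls and -1.14, -0.88, -0.9 and -0.66 after it, a smaller fall that was not called (adjusted p = 0.0848). For Nr2f1 the Pparg experiment read 0, 0.02, -0.29 and -0.16 in controls and -0.07, -0.11, -0.43 and -0.25 in the knockdown, so the difference came from the Gyk side. The 2 experiments ran on different slides and days, each with its own control. Between cold and room temperature, 2 of 30 knockout effects differed, both higher in the cold, where 13.4% of all genes did (6.11% higher and 7.24% lower): Rara by 0.83 ± 0.22 (adjusted p = 0.0227) and Esrrg by 0.78 ± 0.25 (adjusted p = 0.0477). With median centring Rara and, lower, Nr1h3 differed. The Esrrg call was lost under 18 of 24 alternatives, most of them the loss of 1 array. The room temperature Rara arrays read 0.57, 0.85, 0.9 and 1.13 in controls and 0.56, 0.58, 0.51 and 0.85 when labelled knockout. Nr1h3, Nr2f6 and Esrra were not called different (-0.45, -0.04 and 0.45), and for Esrra the interval ran from 0.07 to 0.82 (adjusted p = 0.103).

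In the cold, 20 of 29 receptors were called in control mice, 13 higher and 7 lower, where 66.8% of all genes were called (42.4% higher and 24.4% lower). In the mice labelled knockout 20 of 30 were called, 14 higher and 6 lower, beside 67.6% of all genes (42.2% higher and 25.3% lower). These comparisons use the arrays of the knockout comparisons again. Of the 29 tested in both genotypes 10 (34.5%) were higher in both, beside 33.7% of all genes, and 5 (17.2%) lower in both, beside 18.1%, so the shared calls lay close to the background. The number called in opposite directions was 0. The shared rises were Nr1h2, Nr2c1, Nr2c2, Nr2f6, Nr3c2, Rarg, Rorb, Thra, Vdr and Rxrb, and the shared falls Nr1i3, Nr5a1, Esr2, Esrra and Esrrb. Since all genes together moved up by a median of 0.25 in controls and 0.24 in mice labelled knockout, and by 0.6 and 0.43 when arrays were centred on their medians, differences are best read against those shifts. Of all genes called in controls 63.5% were higher, and 77.4% under median centring. The share of higher calls also moved with median centring in the Pparg knockdown (53.1% to 34.7%), the Gyk knockdown (53.1% to 36.7%), the knockout comparison at room temperature (43.9% to 57%) and the test between temperatures (45.8% to 24.8%).

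**Figure D5:**
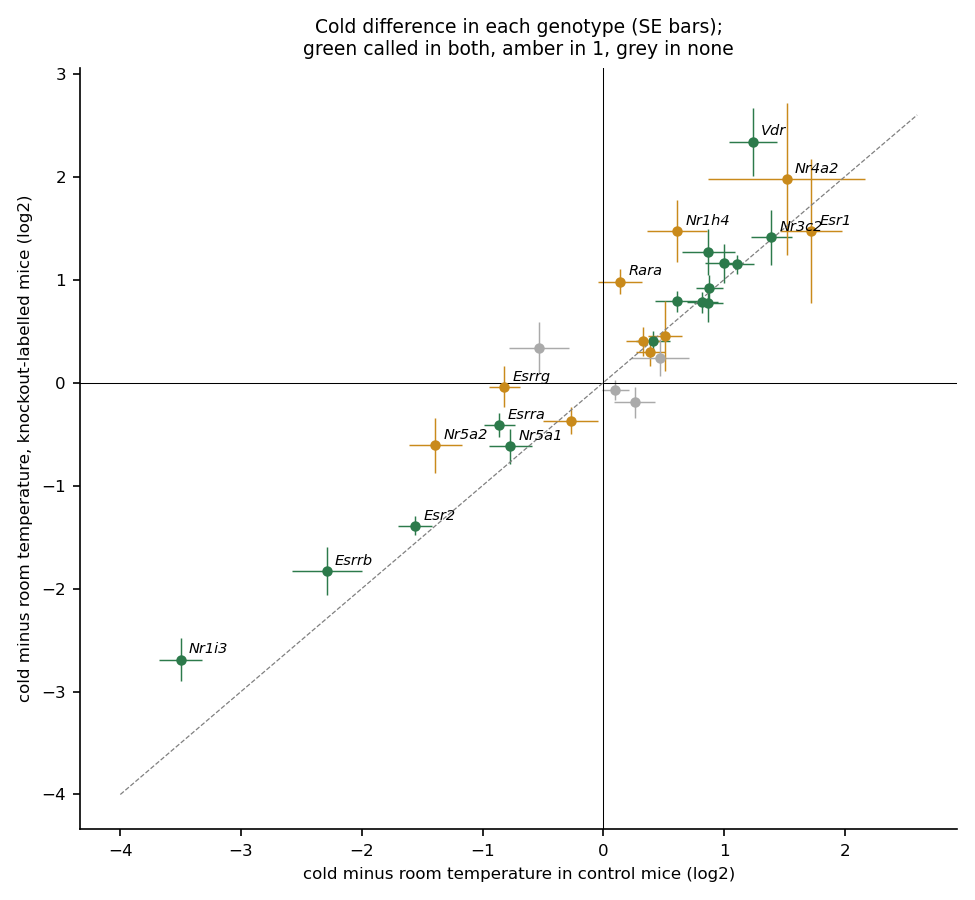
Cold minus room temperature difference (log2, SE bars) of each receptor tested in both genotypes, in control mice (horizontal axis) and in mice labelled knockout (vertical axis); the dashed line marks equal differences. Nr1i3 lies lowest on both axes and Vdr highest on the vertical one.

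Nr1i3 had the largest difference. It read -0.35, -0.75, -0.32 and -0.22 in room temperature controls and -3.53, -4.08, -3.88 and -4.16 in cold controls (-3.5 ± 0.18; adjusted p = 8.99e-07). In the mice labelled knockout it fell from -0.95, -0.19, -0.86 and -0.69 to -3.65, -3.37, -2.92 and -3.52 (-2.69 ± 0.21; adjusted p = 8.99e-06). No array of one temperature came near the other. The second Nr1i3 probe was well above background on none of these arrays. Under the alternatives the Nr1i3 difference was as small as -1.65 in controls and -0.95 in mice labelled knockout, still called. Nr5a2, also a liver receptor, fell in controls from -2.74, -2.53, -3.12 and -2.11 to -4.07, -4.08, -3.68 and -4.23 (-1.39 ± 0.22; adjusted p = 0.000505). In the mice labelled knockout it read -3.44, -3.24, -3.14 and -2.78 and then -4.55, -3.57, -3.64 and -3.29, which overlapped and was not called (adjusted p = 0.0699). The 3 liver markers summed to 0.141 to 3.79 on the room temperature controls and to 0.0361 to 0.0546 in the cold, where Alb, Apoa1 and Ttr were on 0 arrays. The part of this in Nr1i3 and Nr5a2 was not tested.

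Esrrb fell from 0.63, 0.38, 0.49 and 0.9 to -1.05, -2.11, -2.32 and -1.27 in controls (-2.29 ± 0.29; adjusted p = 0.000132). From 0.09, 0.14, -0.22 and -0.48 it fell to -1.54, -1.67, -2.49 and -2.1 in the mice labelled knockout (-1.83 ± 0.23; adjusted p = 0.000144). Both shifts were several times the spread within a group. Esr2 fell from 2.3, 2.18, 1.97 and 2.23 to 0.72, 0.79, 0.68 and 0.26 in controls, and from 2.33, 2.24, 2.28 and 2.09 to 0.88, 0.95, 0.81 and 0.75 in mice labelled knockout. The differences were -1.56 ± 0.14 and -1.39 ± 0.09 (adjusted p = 2.25e-05 and 4.48e-06), and no arrays overlapped. Esrra fell by less, -0.86 in controls and -0.41 in mice labelled knockout, and Nr5a1, a steroidogenic receptor, by 0.77 and 0.62. The chosen Esrrg probe was lower in controls (-0.82 ± 0.13; adjusted p = 0.000603) and read -0.04 in the mice labelled knockout. Its second probe, well above background on all arrays of both comparisons, gave -2.79 and -1.93, and with the mean over probes Esrrg was called lower in the mice labelled knockout too (-0.98; adjusted p = 0.00171).

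Among the rises, Vdr went from -3.86, -3.46, -4.24 and -3.94 to -2.66, -2.46, -3.01 and -2.39 in controls (1.24 ± 0.2; adjusted p = 0.000523). In mice labelled knockout it went from -4.94, -4.51, -3.97 and -4.07 to -1.19, -2, -2.56 and -2.36 (2.34 ± 0.33; adjusted p = 0.000251). Neither overlapped. Nr3c2 rose from -4.26, -4, -3.71 and -4.15 to -2.69, -2.23, -2.85 and -2.79 in controls (1.39 ± 0.17) and from -3.36, -3.71, -3.75 and -3.75 to -2.59, -2.84, -1.54 and -1.95 in the other genotype (1.41 ± 0.27), again without overlap. Vdr was well above background on 3 of 4 arrays in each room temperature group, and Nr3c2 on 2 of 4 room temperature controls. Under the alternatives the difference in controls was as small as 0.48 for Vdr and 0.48 for Nr3c2, still called. In mice labelled knockout that of Vdr was as small as 1.1, still called, and the Nr3c2 call was lost with normexp. Nr1h4 was called in the mice labelled knockout, from -3.48, -4.25, -4.65 and -4.89 to -3.26, -2.62, -2.97 and -2.55 (1.47 ± 0.3; adjusted p = 0.00255). In controls it read -3.16, -3.52, -3.45 and -3.98 and then -3.08, -2.33, -3.38 and -2.88, and missed the threshold (adjusted p = 0.0537). Nr1h2 rose by 1.11 and 1.15, Thra by 1 and 1.16, Rxrb by 0.88 and 0.92, Rorb by 0.87 and 1.27, Nr2f6 by 0.82 and 0.78, Nr2c1 by 0.61 and 0.79, and Nr2c2 by 0.41 and 0.4. The Nr2c2 call in controls was lost without any 1 room temperature control or any of cold controls 1 to 3.

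Rarg rose from 0.71, 1.03, 0.98 and 0.95 to 1.73, 1.69, 1.74 and 1.99 in controls (0.87 ± 0.12) and from 1.06, 1.04, 0.89 and 1.14 to 1.25, 1.97, 2.04 and 1.94 in mice labelled knockout (0.77 ± 0.18). Receptors called in 1 genotype were Esr1 (1.72, with 0.44 from its second probe), Nr2f2 (0.39) and Thrb (0.51, with -0.03 from its second probe) in controls, besides Nr5a2 and Esrrg. The chosen Esr1 probe was well above background on 1 of 4 room temperature controls and on all 4 cold controls. It passed the filter through the cold arrays, so its call is no support for a rise. In mice labelled knockout the receptors called in 1 genotype were Rara (0.98), Ppard (0.4), Rora (-0.37) and Nr4a2 (1.98), besides Nr1h4, and the calls of Ppard, Rora and Nr4a2 were each lost without several single arrays. Except for Rara and Esrrg, the difference between genotypes was not called for any of these. Rorb on its arrays ran from -3.81, -3.92, -3.81 and -3.71 at room temperature to the cold control values above, and from -3.69, -3.67, -2.72 and -3.66 in mice labelled knockout. Nr2c1 went from -0.3, -0.74, -0.34 and -0.42 to 0.6, 0.19, -0.05 and -0.11 in controls and from -0.42, -0.26, -0.36 and -0.41 to 0.58, 0.52, 0.38 and 0.24 in mice labelled knockout. Between cold and room temperature the muscle sums given above also differed, as did the macrophage sums (6.41 to 11 against 12.4 to 15.5 in controls), and their part was not tested. Without the 2 cold controls highest in muscle markers, which shared a slide, 19 receptors were called in controls. Nr2c1 (0.37, limma adjusted p = 0.0652), Nr2c2 and Esr1 were lost and Nr4a2 and Rarb gained.

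Coregulators were called in both directions in the cold, with 5 higher and 7 lower of 18 in controls and 4 and 7 in mice labelled knockout, shares close to or below the 66.8% and 67.6% of all genes called. Ep300, an acetyltransferase, had the largest fall (-3.02 and -3.06), followed in controls by the deacetylase Hdac3 (-1.94). Of 12 genes of ligand supply 10 were tested, and 3 were higher and 0 lower in controls, where 42.4% of all genes were higher and 24.4% lower. Hsd11b1, which makes active glucocorticoid, rose by 2.32 and 2.02, and Cyp27a1, which makes oxysterols, by 2.03 and 1.54. In mice labelled knockout 4 of the 10 tested were higher and 2 lower, beside 42.2% and 25.3% of all genes. Nr0b2 and Nr6a1 were tested and called in none of the 6 comparisons, which leaves 29 receptors called at least once.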

How the data were processed

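Per the labels, RNA was extracted with TRIzol and labelled with Cy3, and arrays were read with Agilent Feature Extraction 10.7.3.1. The authors deposited scanner tables of processed intensity per spot, 44397 spots per array, already corrected for background, per the file headers. From these, control spots (1377) and outlier spots (101 to 247 per array) were left out, log2 of the deposited intensity minus the 75th percentile of the array was taken, and spots of a probe were averaged. Gene symbols came from RefSeq through the accession of each probe, which named 27234 of 39429 probes, and 1 probe per gene was kept, that of highest mean over 32 arrays. A probe entered a test when 4 or more of the arrays compared had it well above background. Differences were fitted with limma 3.58.1 in R 4.3.3 on the groups compared alone, p-values were adjusted by the Benjamini-Hochberg method over all genes tested, and the script was checked on simulated data.

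All 38 receptors are accounted for, each call is named, and arrays are given singly for the 6 largest calls of a comparison, for receptors called in 3 or more of 6 comparisons and for those whose effects differed; of each gene list the largest called members are named, apart from a few that are not reported here. Receptors and lists were chosen with earlier results of these data known. The alternatives were normexp background correction (offset 50, on the median spot and background signals, since no mean spot signal was used here), quantile normalization, median centring, other filters, the mean over probes, slide or replicate number as a block, and leaving out each array. In the Pparg culture experiment same-numbered arrays correlated by 0.703 to 0.767 in their deviations from group means. Arrays of other numbers correlated by up to 0.725, and the numbers there coincide with slides. The number of arrays, 4 per group, limits the precision.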

Additional observations from a re-analysis of the deposited data

Results flagged for a closer look

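In 9 of 147 groups of 4 arrays one array stood apart from the other 3 by more than the 95% limit of Dixon's test, where chance gives about 1 in 20. In the Gyk controls, array 3 read -0.39 for Nr2c1 (others 0.29 to 0.42) and 1.97 for Esrra (others 4.72 to 4.96), and array 2 read -3.09 for Esrrg (others -2.81 to -2.76). Array 4 of the Gyk knockdown read -0.95 for Nr2c1 (others -0.35 to -0.31). Among the room temperature arrays labelled knockout, array 1 read -3.36 for Nr3c2 (others -3.75 to -3.71) and array 3 read -2.72 for Rorb (others -3.69 to -3.66). In the cold, knockout-labelled array 1 was low for Rara at 1.39 (others 1.66 to 1.69) and for Rarg at 1.25 (others 1.94 to 2.04), and control 4 was high for Rarg at 1.99 (others 1.69 to 1.74).

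Effects differed between settings for 7 receptors by limma's test of the difference. The knockout effect in the cold minus that at room temperature was 0.78 for Esrrg and 0.83 for Rara. The Pparg knockdown effect minus the Gyk knockdown effect was -1.36 for Nr1h3, -0.83 for Nr2f1, -1.03 for Nr4a2, -1.01 for Esrrb and -0.64 for Rarb.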

How the results depend on the processing

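Of 84 calls of receptors, 50 kept their direction and stayed past the threshold under every alternative in which the receptor was still tested. An alternative in which a receptor was no longer tested was not counted. This concerned Nr1h4 without any 1 Pparg knockdown array, and Esr1 in the cold in controls without the 2 cold controls highest in muscle markers. Over 1429 recomputed calls, 1283 held, 144 kept their direction but missed the threshold and 2 changed sign, both with normexp background correction: Nr1h4 in the Pparg knockdown (-0.16) and Nr5a1 in the cold in mice labelled knockout (0.02). The cause was not tested. Leaving out 1 array at a time gave 11 to 16 receptors in the Pparg knockdown, 1 to 4 in the Gyk knockdown, 10 to 14 and 4 to 8 in the knockout comparisons at room temperature and in the cold (4 without knockout-labelled array 4), 19 to 21 and 17 to 21 in the cold in controls and in mice labelled knockout, 1 to 3 in the test between temperatures and 5 to 7 in that between knockdowns. The 2 calls of the Gyk knockdown became 1 with normexp, 1 with median centring, 1 with no filter and 0 with the replicate number as a block, whose same-numbered arrays correlated by 0.0536 to 0.116. Without Gyk knockdown arrays 3 and 4, the dimmest of all, which was chosen after seeing the data, there were 4, and 9 in the test between knockdowns, which had 8 with slide as a block. With normexp the cold in mice labelled knockout gave 12 and the test between temperatures 0. Over all genes, normexp gave 259 calls in the Gyk knockdown, 2899 at room temperature, 5025 in the cold in mice labelled knockout, 610 between temperatures and 865 between knockdowns. The Gyk knockdown had 447 with no filter, 111 with the replicate block and 298 to 627 when one of 5 arrays was left out. Slide as a block gave 7596 in the Pparg knockdown and 2999 between knockdowns, and 1231 were called between temperatures without room temperature knockout-labelled array 1. Among receptors called at least once, the values of Nr1h4, Esr1, Esrrb, Vdr, Nr3c2, Esrrg and Rora include arrays where their probe was not well above background.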
